A study of Mus musculus with 32 samples.

Results

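The transcripts followed here are 10 genes that mark neutrophils in the mouse: S100a8, S100a9, Ly6g, Mmp8, Ngp, Camp, Ltf, Cxcr2, Csf3r and Retnlg. They were taken by name from the count tables of a stroke experiment, in which each of 33280 genes has a count in every library, and all 10 were found. Wild type mice (C57BL/6JCrl, both sexes) received by gavage either the vehicle alone, hydroxypropyl-β-cyclodextrin in water (CTL, 4 mice), or BLZ945 in it at 200 mg per kg body weight, every day for 7 days (4 mice). BLZ945 inhibits CSF1R, the receptor that microglia and central nervous system (CNS)-associated macrophages (CAMs) need to survive, so that these cells are lost and then repopulate the brain. All 8 mice had a stroke 8 weeks later, made by injecting thrombin into the middle cerebral artery, and RNA was taken 1 day after it. There was no group without stroke, and the contralateral hemisphere of the same mouse served as the reference for the ipsilateral one.

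From each hemisphere, bulk RNA-seq was made of whole tissue (16 libraries) and of sorted CAMs, with the choroid plexus removed before sorting. The sort took CD45+ CD11b+ CD206+ cells that were negative for Ly6C, Ly6G and CD11c, so cells carrying Ly6G, the surface antigen of mature mouse neutrophils, were gated out. The ipsilateral CAM libraries of mice A3 (CTL) and C2 (BLZ945) came from degraded RNA and were left out, which leaves 14 CAM libraries with 3 ipsilateral and 4 contralateral libraries for each treatment. For the tissue of mouse A3, the table's column names and the sample labels disagree on the hemisphere, and library 19, ipsilateral by its sample label, was used as such.

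Neutrophils are short-lived granulocytes made in the bone marrow, and they are among the first blood cells to enter brain tissue after an artery is blocked. In this stroke model, however, the paper reports that staining found no neutrophil infiltration of the lesions at the time point used here. Neutrophil granule proteins are made in order as the cell matures. Ngp, Camp and Ltf are transcribed in late precursors of the marrow, whereas mature cells leaving the marrow carry transcripts of S100a8, S100a9, Mmp8, Retnlg and of the receptors Cxcr2 and Csf3r. S100a8 and S100a9 pair into calprotectin, a calcium-binding alarmin that makes up a large part of the neutrophil cytosol. None of these transcripts is unique to neutrophils in every state, and Csf3r is also transcribed by microglia and other myeloid cells.

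The members are not scattered evenly in the genome. By RefSeq coordinates of GRCm38.p6, S100a8 and S100a9 neighbour each other on chromosome 3, and 4 of the 10 (Mmp8, Camp, Ngp and Ltf) lie on chromosome 9. The build behind the counts is not given in the sources used here, so these coordinates locate the RefSeq sequences only. The lines that follow give the 250 bases before the transcription start of the 3 granule genes that shared their high libraries, on the gene's own strand, with each match to TTGCNNAA, a C/EBP-type motif, in capitals. C/EBPε is the transcription factor known to drive these granule genes in marrow precursors.
Ngp, chr9:110419558-110419807, plus strand: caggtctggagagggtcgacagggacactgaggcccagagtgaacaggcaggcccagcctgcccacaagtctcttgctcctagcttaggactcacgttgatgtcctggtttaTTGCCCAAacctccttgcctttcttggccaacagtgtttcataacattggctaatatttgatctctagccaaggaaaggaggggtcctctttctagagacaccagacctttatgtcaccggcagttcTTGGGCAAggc
Camp, chr9:109849457-109849706, minus strand: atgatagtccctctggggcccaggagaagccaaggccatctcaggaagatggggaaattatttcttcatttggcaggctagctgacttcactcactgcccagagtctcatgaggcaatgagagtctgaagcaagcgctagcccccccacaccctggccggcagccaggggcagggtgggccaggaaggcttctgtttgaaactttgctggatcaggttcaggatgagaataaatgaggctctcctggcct
Ltf, chr9:111019042-111019291, plus strand: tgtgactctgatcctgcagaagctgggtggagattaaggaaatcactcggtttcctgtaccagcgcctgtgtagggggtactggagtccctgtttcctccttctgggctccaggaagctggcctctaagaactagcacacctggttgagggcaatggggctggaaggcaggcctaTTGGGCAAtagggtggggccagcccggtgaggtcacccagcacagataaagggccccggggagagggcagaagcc
The same stretch of the 2 calprotectin genes is given for comparison.
S100a8, chr3:90668821-90669070, plus strand: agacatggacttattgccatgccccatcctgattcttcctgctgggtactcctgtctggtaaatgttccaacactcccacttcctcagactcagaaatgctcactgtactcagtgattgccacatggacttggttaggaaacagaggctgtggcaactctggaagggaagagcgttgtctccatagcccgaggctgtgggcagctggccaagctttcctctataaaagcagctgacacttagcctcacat
S100a9, chr3:90695722-90695971, minus strand: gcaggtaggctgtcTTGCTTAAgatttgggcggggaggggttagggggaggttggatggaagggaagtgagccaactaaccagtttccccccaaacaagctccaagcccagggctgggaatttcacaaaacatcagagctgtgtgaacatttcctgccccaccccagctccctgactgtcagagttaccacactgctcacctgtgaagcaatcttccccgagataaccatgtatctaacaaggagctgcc
Read on both strands, TTGCNNAA occurred in 6 of the 10 members, among them Ngp with 2 matches, Ltf and S100a9 with 1 each and neither Camp nor S100a8. Of 32851 mouse promoter windows of the same length, 9.56% held the motif. The shorter PU.1-type motif GAGGAA occurred in 6 of the 10 members and in 23.3% of all windows. These are matches of letters and not mapped binding sites.

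Total counts ran from 9288717 to 12781505 in tissue and from 7397393 to 11081409 in the CAM libraries used. A floor of 3 reads corresponds to between 0.234 and 0.321 CPM (reads scaled to a common library size) in tissue and between 0.253 and 0.389 CPM in CAMs, for counting error only. The tissue libraries were rich in transcripts of neurons, with a summed 5902 to 9112 CPM for 5 neuron markers. In the CAM libraries Mrc1, which encodes CD206, had 344 to 2819 CPM, and all 10 CAM markers had reads. The 8 microglia markers, however, summed to more CPM than the 10 CAM markers in all 14 libraries (7754 to 29769 against 1658 to 10469 CPM). All library names share the same prefix, and effects of batch were not tested.

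In whole tissue, S100a9 and Cxcr2 had their reads mainly in the ipsilateral hemisphere, S100a8 showed a smaller difference, and Csf3r showed none of this. S100a9 had 3, 15, 8 and 39 reads in the ipsilateral libraries of CTL mice A2, A3, A4 and B1, against 1, 0, 0 and 3 in their contralateral ones. In BLZ945 mice C2, C3, C4 and D1 the ipsilateral libraries had 18, 4, 14 and 18 reads, and the contralateral ones 0, 0, 0 and 4. In all 8 mice the ipsilateral CPM was the higher of the pair, and the groups of libraries did not overlap in BLZ945 mice, although the closest values were 4 reads on each side.

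Summed over mice, S100a9 stood at 65 ipsilateral and 4 contralateral reads in CTL mice, a ratio of 15.2 after scaling to library size (95% counting interval 5.67 to 57.5). In BLZ945 mice the sums were 54 and 4, a ratio of 13.6 (5.01 to 51.6). Means were 1.36 ± 1.31 CPM ipsilateral against 0.0892 ± 0.131 contralateral in CTL mice and 1.34 ± 0.642 against 0.0936 ± 0.187 in BLZ945 mice (SD, n = 4). The log2 fold change of S100a9 was 2.49 ± 0.67 (SE) in CTL tissue, with an adjusted p of 0.190 by edgeR's quasi-likelihood test, and 2.44 ± 0.69 in BLZ945 tissue, with an adjusted p of 0.111. Neither passed the threshold, an adjusted p under 0.05 with a log2 fold change beyond 0.59. Since both hemispheres came from the same mouse, the fit with the mouse as a block pairs them, and there S100a9 was called in both treatments (log2 fold change 2.33, adjusted p = 0.0229 in CTL, and 2.46, adjusted p = 0.00883 in BLZ945, edgeR). DESeq2 without the block called it too (adjusted p = 0.0397 and 0.0263). With the hemispheres of A3 taken from the column names, the value in CTL tissue was 1.02 with an adjusted p of 1. In bulk tissue, more cells of a type and more RNA per cell cannot be told apart.

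Cxcr2, the receptor through which neutrophils follow Cxcl1 and related chemokines, had no read in any of the 8 contralateral tissue libraries. It had 0, 2, 2 and 7 reads in the ipsilateral libraries of A2, A3, A4 and B1, and 7, 3, 11 and 3 in those of C2, C3, C4 and D1. The ipsilateral library was thus the higher in 7 of 8 mice, the exception being A2 with no read on either side. The 11 ipsilateral reads of Cxcr2 in CTL mice stood 3.44-fold above a floor of 3 contralateral reads over the group, and the 24 in BLZ945 mice 8.05-fold. These ratios take the ipsilateral reads as exact and leave out the spread between mice, so they are not lower limits. B1 alone gave 7 of the 11 CTL reads. The fitted log2 fold changes, which depend on the prior count for a gene with empty libraries, were 1.17 ± 0.39 in CTL (edgeR, adjusted p = 0.554) and 2.09 ± 0.51 in BLZ945 tissue (adjusted p = 0.0930). DESeq2 called Cxcr2 in BLZ945 tissue (adjusted p = 0.0307), and edgeR with the mouse as a block did not (adjusted p = 0.0618). With the hemispheres of A3 taken from the column names, the 2 Cxcr2 reads of A3 would be contralateral. The log2 fold change in CTL tissue was then 0.71.

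S100a8 was sparse on both sides. It had 4, 2, 3 and 7 reads in the ipsilateral CTL libraries and 1, 0, 3 and 1 in the contralateral ones, in the order A2, A3, A4 and B1. The BLZ945 libraries had 10, 1, 11 and 12 ipsilateral and 0, 2, 3 and 8 contralateral reads, in the order C2, C3, C4 and D1. The groups overlapped in both treatments, and the ipsilateral CPM was higher in 6 of 8 mice. Its log2 fold changes were 0.79 ± 0.51 in CTL and 1.05 ± 0.58 in BLZ945 tissue (edgeR, adjusted p = 0.957 and 0.561).

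**Figure D1:**
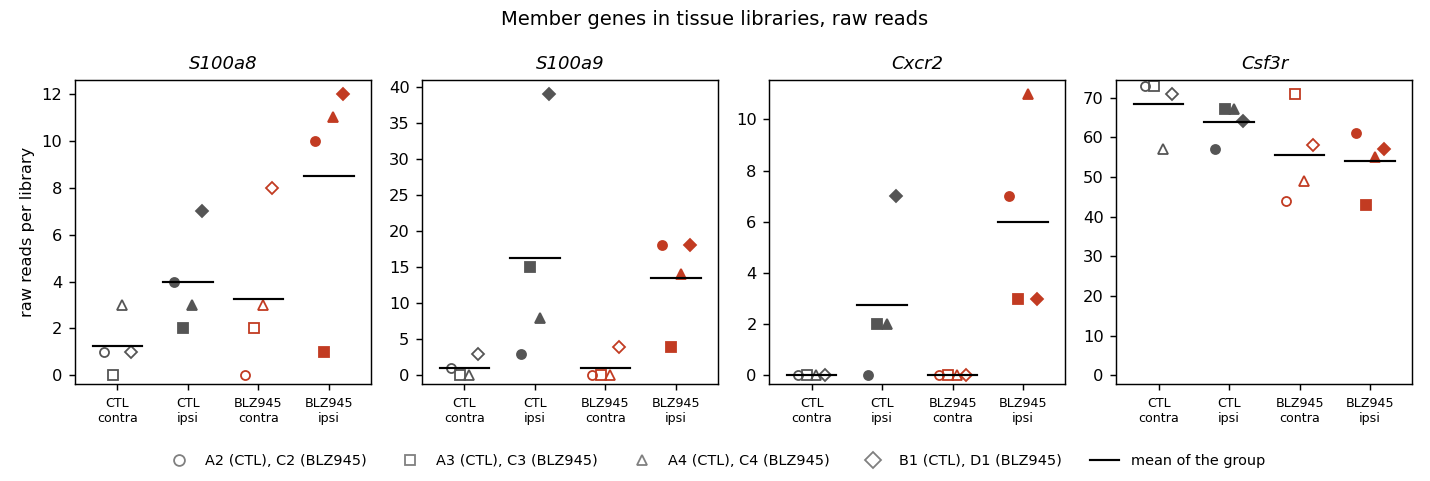
Raw reads of S100a8, S100a9, Cxcr2 and Csf3r in each of the 16 tissue libraries (y axis, reads per library), by treatment and hemisphere, with 1 marker per mouse and the group mean as a bar. All contralateral libraries are at 0 for Cxcr2 and at 4 reads or below for S100a9, while Csf3r lies between 43 and 73 reads in all 4 groups.

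Csf3r, the receptor for the granulocyte growth factor G-CSF, had the most tissue reads of the 10 members. It had 57, 67, 67 and 64 ipsilateral and 73, 73, 57 and 71 contralateral reads in CTL mice, and 61, 43, 55 and 57 against 44, 71, 49 and 58 in BLZ945 mice. The groups overlapped, and the summed ipsilateral over contralateral ratio, scaled to library size, was 0.872 (95% counting interval 0.732 to 1.04) in CTL and 0.979 (0.808 to 1.19) in BLZ945 tissue. The log2 fold changes were -0.19 ± 0.17 and -0.04 ± 0.17 (edgeR, adjusted p = 0.999 and 0.980).

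The 6 remaining members, Ngp, Camp, Ltf, Mmp8, Ly6g and Retnlg, had between 0 and 3 reads in each tissue library. Of their 96 values 70 were 0, and they summed to 39 reads over all 16 libraries, so a difference between hemispheres was not detectable at this depth. Ly6g, Mmp8, Camp and Retnlg fell below the filter of 8 reads over all libraries, and 6 of the 10 members were tested in tissue. Reads of Ly6g may also be shared with the closely related genes around it in the Ly6 cluster.

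edgeR called none of the 6 members tested in tissue (S100a8, S100a9, Cxcr2, Csf3r, Ngp and Ltf). The background was 0.443% of 18968 genes called in CTL mice (84 up, 0 down) and 1.16% in BLZ945 mice (213 up, 7 down). At an unadjusted p under 0.05, 2 members were higher ipsilaterally in each treatment, S100a9 and Cxcr2, and none was lower. Of all 18968 genes, 1182 in CTL and 2057 in BLZ945 tissue were under this unadjusted cutoff, in either direction. With the mouse as a block, 1 member (S100a9) was called in each treatment, against a background of 0.965% and 2.18%. DESeq2, which gave an adjusted p for 4 members in each treatment and none for Ngp and Ltf, called 1 member in CTL and 2 in BLZ945 tissue, against 0.733% and 1.84% of all genes. The median log2 fold change of the tested members was 0.37 in CTL and 0.53 in BLZ945 tissue, beside -0.01 and -0.00 over all genes tested. Between treatments, edgeR called no member in ipsilateral or contralateral tissue and none in the test of whether the hemisphere difference changed with treatment, with none at an unadjusted p under 0.05 and none by DESeq2. The background of edgeR calls was 0 in all 3 of these comparisons. At an unadjusted p under 0.05 it was 858 (ipsilateral), 616 (contralateral) and 386 (interaction) of 18968 genes.

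Of 24 other neutrophil genes tested, 2 were called higher ipsilaterally in each treatment, Lcn2 and Cd300ld, against a background of 0.443% in CTL and 1.16% in BLZ945 tissue. Lcn2, an iron-scavenging granule protein that astrocytes also make, had 2.50 to 16.4 CPM ipsilaterally and 0.793 to 2.89 contralaterally in CTL mice (log2 fold change 2.67 ± 0.48, edgeR, adjusted p = 0.0160). In BLZ945 mice it had 6.83 to 15.8 against 1.05 to 2.53 CPM (2.33 ± 0.48, adjusted p = 0.0184). The astrocyte gene Gfap rose in the same libraries, with log2 fold changes of 1.54 and 1.87 (adjusted p = 0.0101 and 0.00119), and its part in the Lcn2 difference was not tested. Cd300ld, a receptor of the CD300 family on myeloid cells, rose by 2.38 ± 0.48 and 2.40 ± 0.53 (adjusted p = 0.0332 and 0.0286).

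Among 16 tested genes for neutrophil ligands and adhesion molecules, edgeR called 4 higher and 1 lower in BLZ945 tissue, and none in CTL tissue. The background was 1.16% of 18968 genes in BLZ945 tissue (213 up, 7 down) and 0.443% in CTL tissue. At an unadjusted p under 0.05, 10 were higher and 1 lower in BLZ945 tissue, and 9 higher and 1 lower in CTL tissue. Of all 18968 genes, 2057 in BLZ945 and 1182 in CTL tissue were under that unadjusted cutoff. These counts and the values below come from the fit without the mouse as a block. Sele, the endothelial selectin on which neutrophils roll, had 0.0233 ± 0.0465 CPM contralaterally and 2.12 ± 2.08 ipsilaterally in BLZ945 mice (log2 fold change 3.46 ± 0.64, adjusted p = 0.00875). In CTL mice it had 0.0489 ± 0.0566 and 0.231 ± 0.176 CPM (0.85 ± 0.48, adjusted p = 0.915). Cxcl1, a ligand of Cxcr2, rose by 3.03 ± 0.62 in BLZ945 tissue (adjusted p = 0.0177) and stood at 1.60 ± 0.59 in CTL tissue (adjusted p = 0.575). Icam1, to which neutrophil integrins bind, rose by 1.65 ± 0.34 in BLZ945 tissue (adjusted p = 0.0184) and stood at 1.17 ± 0.33 in CTL tissue (adjusted p = 0.261). Selplg, the selectin ligand, fell by 0.64 on the log2 scale in BLZ945 tissue (SE 0.14, adjusted p = 0.0328), from 21.7 ± 2.91 to 13.9 ± 2.22 CPM. In the same tissue 2 of 8 microglia markers were called lower, Siglech (-0.86) and P2ry12 (-0.70, edgeR, adjusted p = 0.0124 and 0.0287). None was called higher, and 4 of the 8 had a positive value. Their part in the Selplg difference was not tested. No gene at all was called for a difference between the treatments in this response, so a call in one treatment and not in the other does not show that they differed.

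Cd14 was the 1 gene called among 5 receptors of S100a8 and S100a9. It is the co-receptor of TLR4, and it rose by 2.74 ± 0.44 in CTL tissue and by 2.90 ± 0.44 in BLZ945 tissue (edgeR, adjusted p = 0.00564 and 0.00188). Of the 4 primary granule genes of marrow precursors, Ctsg had no tissue read, 2 were tested and none was called or reached an unadjusted p under 0.05 by edgeR. The monocyte markers, which share blood as a source, had 1 of 10 genes called in each treatment, Fn1 (0.69 ± 0.13 in CTL, adjusted p = 0.0263, and 1.13 ± 0.13 in BLZ945 tissue, adjusted p = 0.000204). The background was 0.443% and 1.16% of genes called. In CTL tissue all 10 had positive values, 6 of them with p under 0.05 before adjustment (edgeR). In BLZ945 tissue 9 were positive, 4 of them under that cutoff. Fn1 stood at 73.7 and 74.0 CPM contralaterally in CTL and BLZ945 tissue. Of 4 endothelial markers, Pecam1 and Cdh5 were called higher in BLZ945 tissue (0.78 and 0.84) and none in CTL tissue. The part of other cells in the Fn1 difference was not tested. The red blood cell markers summed to 1.78 to 10.4 CPM contralaterally and 3.01 to 10.2 ipsilaterally in CTL tissue, with 0.744 to 5.33 and 3.89 to 11.6 CPM in BLZ945 tissue, and their part in these differences was not tested.

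In the sorted CAM libraries S100a8 and S100a9 were present in every library, and their highest levels were in contralateral libraries of BLZ945 mice. S100a8 had 162, 79.7, 57.5 and 259 CPM in the contralateral CTL libraries A2, A3, A4 and B1, and 42.6, 214 and 136 CPM in the ipsilateral ones A2, A4 and B1. In BLZ945 mice it had 958, 44.5, 1535 and 868 CPM contralaterally in C2, C3, C4 and D1, and 36.9, 165 and 314 CPM ipsilaterally in C3, C4 and D1. The libraries C2, C4 and D1 were above all others, whereas C3 was close to the lowest CTL library, so the groups overlapped.

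S100a9 followed S100a8 library by library. It had 159, 71.2, 41.8 and 223 CPM in the contralateral and 33.0, 173 and 150 CPM in the ipsilateral CTL libraries, in the same order of mice. The BLZ945 libraries had 692, 37.7, 1217 and 916 CPM contralaterally and 48.3, 168 and 301 CPM ipsilaterally. The count of S100a8 over that of S100a9 stayed between 0.765 and 1.38 in all 14 libraries (median 1.14), while their levels ranged over more than an order of magnitude.

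The sign in BLZ945 CAMs was the opposite of that in tissue, a difference that was not tested. In CAMs of BLZ945 mice, S100a8 averaged 851 ± 614 CPM contralaterally (SD, n = 4) and 172 ± 139 ipsilaterally (n = 3), a log2 fold change of -2.30 ± 0.92 (edgeR, unadjusted p = 0.0243, adjusted p = 0.157). S100a9 averaged 716 ± 500 and 172 ± 126 CPM (-2.05 ± 0.90, adjusted p = 0.200). S100a8 was lower ipsilaterally in 3 of 3 mice with both libraries, and S100a9 in 2 of 3. In CTL mice the means lay close together, at 140 ± 91.5 and 131 ± 85.6 CPM for S100a8 (-0.09 ± 0.85, adjusted p = 0.989) and 124 ± 82.9 and 119 ± 75.0 CPM for S100a9 (-0.06 ± 0.85, adjusted p = 0.999). None of these changes passed the threshold.

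**Figure D2:**
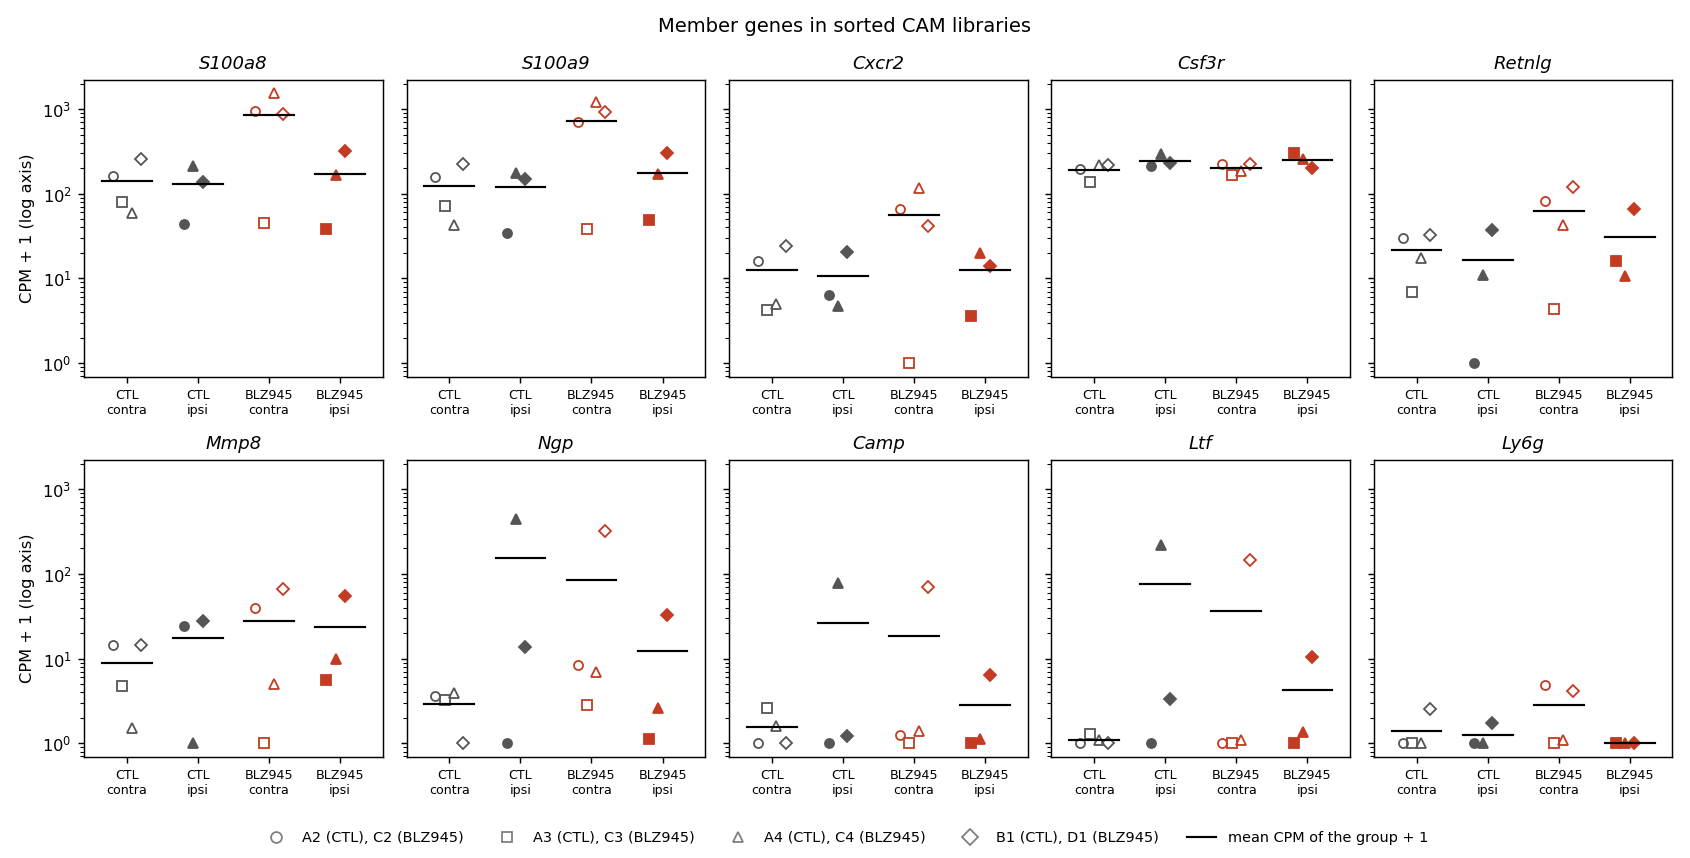
CPM plus 1 (log axis) of the 10 members in the 14 sorted CAM libraries, by treatment and hemisphere, with 1 marker per mouse (open, contralateral; filled, ipsilateral) and the group mean as a bar. S100a8 and S100a9 are highest in 3 of the 4 contralateral BLZ945 libraries, Ngp, Camp and Ltf stand high in A4 ipsilateral and D1 contralateral, and Csf3r is level.

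Of the other transcripts of mature neutrophils, Cxcr2 was highest in the 3 contralateral BLZ945 libraries that were high in S100a8, and Retnlg and Mmp8 were highest in C2 contralateral and in both libraries of D1. Cxcr2 had 64.3, 0, 115 and 40.1 CPM contralaterally in C2, C3, C4 and D1, and 2.56, 18.95 and 12.9 CPM ipsilaterally in C3, C4 and D1. In CTL mice it had 15.05, 3.29, 4.05 and 23.3 CPM contralaterally and 5.39, 3.76 and 19.5 CPM ipsilaterally. Its log2 fold change across hemispheres in BLZ945 mice was -2.24 ± 1.26 (edgeR, adjusted p = 0.305), with the lower value ipsilaterally in 2 of 3 mice.

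Retnlg, a resistin-like protein secreted by neutrophils, had 80.7, 3.31, 42.1 and 120 CPM in contralateral and 14.9, 9.79 and 64.3 CPM in ipsilateral BLZ945 libraries. In CTL mice Retnlg had 28.7, 5.999, 16.5 and 31.4 CPM contralaterally and 0, 9.86 and 36.5 ipsilaterally. Mmp8, the neutrophil collagenase, had 38.6, 0, 4.04 and 65.7 CPM contralaterally and 4.63, 8.91 and 54.3 CPM ipsilaterally in BLZ945 mice. In CTL mice Mmp8 had 13.5, 3.77, 0.506 and 13.7 CPM contralaterally and 23.2, 0 and 26.9 CPM ipsilaterally. All groups overlapped for both genes. Among the contralateral BLZ945 libraries C3 had the lowest value, or shared it, for all 10 members.

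Ly6g, whose protein the sort excluded, had no read in 9 of the 14 CAM libraries. Its highest levels were 3.93 CPM (31 reads) in C2 and 3.18 CPM (31 reads) in D1, both contralateral BLZ945 libraries, followed by 1.53 CPM (14 reads) in B1 contralateral. The log2 fold change in BLZ945 mice was -3.23 ± 1.42 (edgeR, unadjusted p = 0.0403, adjusted p = 0.204), a fitted value that depends on the prior count because all ipsilateral libraries were at 0.

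Csf3r differed from the other 9 members in its evenness. It had 192, 138, 216 and 218 CPM in the contralateral and 211, 290 and 228 CPM in the ipsilateral CTL libraries. In BLZ945 mice it had 224, 167, 182 and 225 CPM contralaterally and 302, 255 and 198 CPM ipsilaterally. Mouse C3, the lowest contralaterally for S100a8, had the highest Csf3r ipsilaterally. The log2 fold changes were 0.34 ± 0.21 in CTL and 0.33 ± 0.21 in BLZ945 mice (edgeR, adjusted p = 0.389 and 0.362).

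The granule genes Ngp, Camp and Ltf did not follow calprotectin. Ngp, the neutrophilic granule protein, had 446 CPM in A4 ipsilateral and 322 CPM in D1 contralateral, then 32.1 CPM in D1 ipsilateral and 12.8 CPM in B1 ipsilateral, and 7.34 CPM or less in the 10 other libraries. Ltf, the iron-binding lactoferrin, had 220 and 144 CPM in A4 ipsilateral and D1 contralateral, 9.57 CPM in D1 ipsilateral, 2.36 CPM in B1 ipsilateral and 0.377 CPM or less elsewhere. Camp, the cathelicidin precursor, had 76.5 and 68.6 CPM in the same pair of libraries, 5.46 CPM in D1 ipsilateral and 1.64 CPM or less elsewhere.

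A pair of libraries therefore held nearly all reads of these genes. A4 ipsilateral and D1 contralateral, from different mice, treatments and hemispheres, had 10935 of the 11810 granule reads over 14 libraries (92.6%). Their proportions were alike, with 2.03 and 2.24 Ngp reads per Ltf read and 5.83 and 4.68 Ngp reads per Camp read. D1 ipsilateral, with 458 granule reads, had 3.35 and 5.89. In A4 ipsilateral the granule sum was 743 CPM beside 386 CPM of S100a8 and S100a9, with no read of Mmp8 or Ly6g and 3.76 CPM of Cxcr2. In C4 contralateral, where calprotectin was highest at 2752 CPM, the granule sum was 6.46 CPM.

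**Figure D3:**
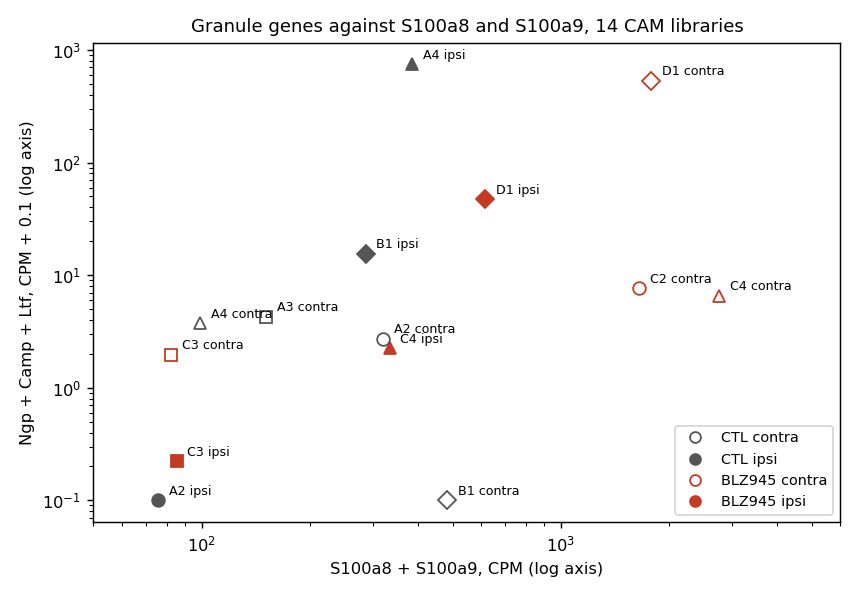
Summed CPM of Ngp, Camp and Ltf plus 0.1 (y, log axis) against summed CPM of S100a8 and S100a9 (x, log axis) in the 14 CAM libraries, each labelled by mouse and hemisphere. A4 ipsilateral and D1 contralateral lie above the rest on y at 743 and 534 CPM, while C2 and C4 contralateral are high on x only, at 1650 and 2752 CPM.

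A hemisphere contrast of these genes in CTL mice rests on a single library. The log2 fold changes were 7.91 ± 2.58 for Ltf, 6.13 ± 2.12 for Ngp and 5.05 ± 2.34 for Camp (edgeR, unadjusted p = 0.00781, 0.0110 and 0.0472; adjusted p = 0.116, 0.137 and 0.267). Without the libraries A4 ipsilateral and D1 contralateral, a setting chosen after their values were seen, Camp turned to -1.27 (adjusted p = 0.730), and without mouse A4 it turned to -1.23 (adjusted p = 0.821). With the mouse as a block, over the 6 mice with both CAM libraries, Ltf was called (6.36, adjusted p = 0.00817), the only member, against a background of 1.55%. Without mouse D1 Ltf was called as well (7.90, adjusted p = 0.0248), against a background of 3.13%. Its ipsilateral reads in CTL mice were 0, 1699 and 22 in A2, A4 and B1, so the call is carried by A4. In BLZ945 mice the changes were of the opposite sign, at -3.34 ± 2.36 for Ltf, -2.86 ± 2.00 for Ngp and -3.07 ± 2.39 for Camp (adjusted p = 0.422, 0.415 and 0.475), and without A4 ipsilateral and D1 contralateral they turned to 3.84, 1.13 and 2.27 (adjusted p = 0.183, 0.753 and 0.478).

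edgeR called none of the 10 members across hemispheres in CAMs, against a background of 2.79% of 18297 genes in CTL mice (78 up, 432 down) and 5.61% in BLZ945 mice (220 up, 807 down). At an unadjusted p under 0.05, 3 members were higher ipsilaterally in CTL mice (Ltf, Ngp and Camp) and 3 were lower in BLZ945 mice (S100a8, S100a9 and Ly6g). At this unadjusted cutoff the background was much wider, with 3346 of 18297 genes in CTL and 4088 in BLZ945 mice, in either direction. DESeq2 called none of the 7 members to which it gave an adjusted p, and it gave none to Ngp, Camp and Ltf. In CTL CAMs its background was wider than that of edgeR, at 1775 of 18297 genes called. The members' median log2 fold change was 0.14 in CTL and -2.27 in BLZ945 mice, beside -0.10 and -0.13 over all genes tested. In BLZ945 mice 9 of 10 members had a negative value, the exception being Csf3r, and in CTL mice 5 of 10.

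**Figure D4:**
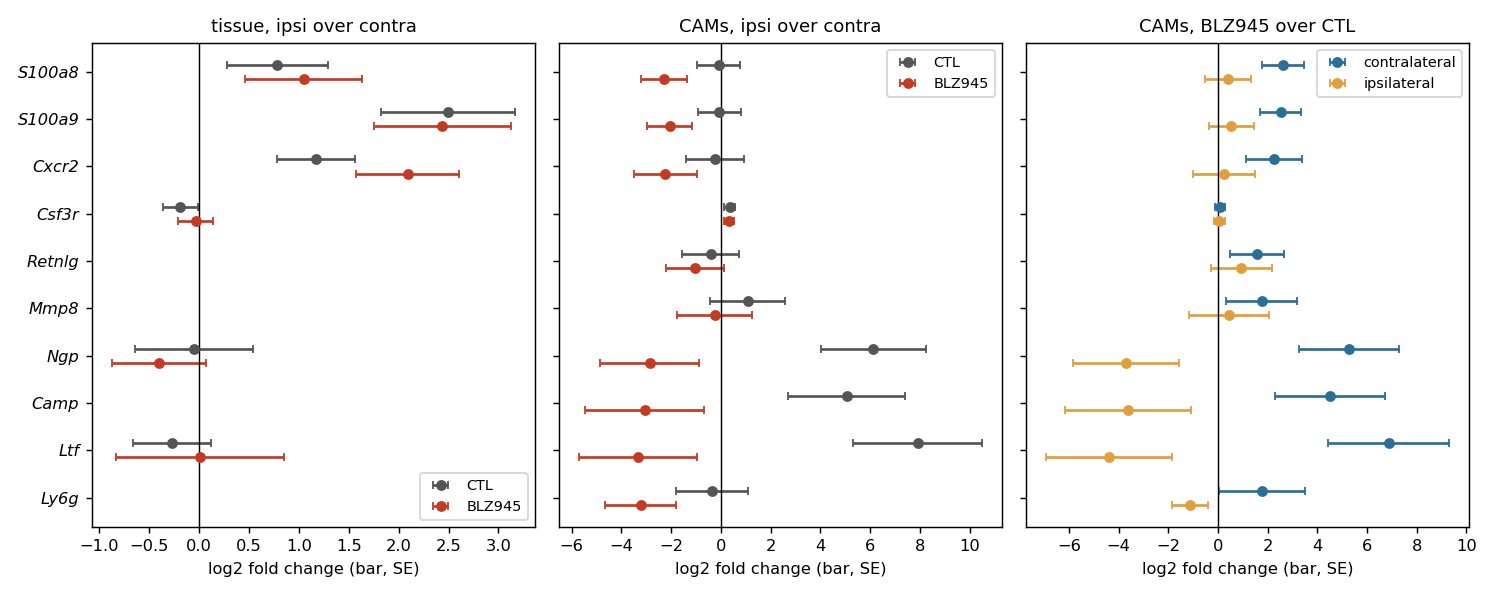
Log2 fold changes of the members with their SE (x axis) for ipsilateral over contralateral tissue, ipsilateral over contralateral CAMs, and BLZ945 over CTL CAMs within each hemisphere, from the edgeR fit without a block. S100a9 lies at 2.49 and 2.44 in tissue and at -0.06 and -2.05 in CAMs, none past the threshold, and members under the tissue filter have no tissue value.

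Comparing the treatments within a hemisphere, all 10 members had a higher fitted level in contralateral CAMs of BLZ945 than of CTL mice. The log2 fold changes ranged from 0.06 to 6.87, with a median of 2.39 beside -0.00 over all genes. The groups of libraries overlapped for all 10 members, which share the libraries and so are not separate cases. S100a8 had 2.61 ± 0.84 and S100a9 2.53 ± 0.83 (edgeR, unadjusted p = 0.00695 and 0.00788; adjusted p = 0.759 for both). Ltf had 6.87 ± 2.43, Ngp 5.27 ± 2.01 and Camp 4.50 ± 2.22 (adjusted p = 0.759 for all 3). Without mouse D1, Ltf turned to -0.30 and Camp to -0.84, while S100a8 ranged from 2.16 to 3.09 and S100a9 from 2.15 to 2.98 whichever mouse was left out. No member was called by edgeR and 4 reached an unadjusted p under 0.05, and the background was 0 because edgeR called no gene in this comparison. At the unadjusted cutoff the background was 1133 of 18297 genes. DESeq2 called none of the 6 members with an adjusted p, and it gave none to Ngp, Camp, Ltf and Ly6g. Markers of other cells moved in the same comparison, without a call. All 10 monocyte markers were higher in BLZ945 mice (median log2 fold change 1.57, 4 at an unadjusted p under 0.05), with sums of 420 to 1804 CPM against 392 to 544 CPM in CTL mice. All 4 choroid plexus markers were higher (median 2.63, none at an unadjusted p under 0.05). All 8 microglia markers were lower (median -0.70, 6 at an unadjusted p under 0.05), with sums of 7754 to 14365 against 14872 to 20629 CPM, and 8 of 10 CAM markers were lower (median -0.58, 4 at an unadjusted p under 0.05). Their part in the member values was not tested. In ipsilateral CAMs 6 members were higher and 4 lower in BLZ945 mice, none at an unadjusted p under 0.05 and none of the 6 with an adjusted p called by DESeq2, again against a background of 0 edgeR calls. The unadjusted background there was 1034 of 18297 genes.

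The difference between the treatments in the hemisphere contrast was tested as an interaction. All 10 members had a negative value, but they ranged from -11.25 ± 3.57 for Ltf (edgeR, unadjusted p = 0.00644, adjusted p = 0.992) to -0.01. The median over all genes was -0.03, and the members share libraries, so their signs are not separate cases. Ngp stood at -8.99 ± 2.98, Camp at -8.12 ± 3.40 and S100a8 at -2.21 ± 1.22 (adjusted p = 0.992, 0.992 and 1.00). Without A4 ipsilateral and D1 contralateral, Ltf and Camp turned to 1.65 and 3.53. No member and no gene was called, with 3 members at an unadjusted p under 0.05 in edgeR, and DESeq2 called none of the 7 members with an adjusted p, which Ngp, Camp and Ltf lacked. Of all 18297 genes, 912 had an unadjusted p under 0.05 in edgeR. The contrast shares its contralateral libraries with the comparison of treatments above, so the values are not separate evidence.

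Markers of other cells moved with the hemisphere in the CAM libraries. The 4 endothelial markers summed to 436 to 1165 CPM in contralateral and 47.0 to 96.9 CPM in ipsilateral CTL libraries, and to 642 to 957 and 22.2 to 39.0 CPM in BLZ945 libraries, and all 4 were called lower ipsilaterally in both treatments. The 4 oligodendrocyte markers summed to 1719 to 4885 against 191 to 455 CPM in CTL and 407 to 2630 against 78.2 to 150 CPM in BLZ945 libraries. The 4 choroid plexus markers, of a tissue removed before the sort, ranged from 24.5 to 8954 CPM contralaterally and from 0.502 to 373 CPM ipsilaterally in CTL mice, and from 1412 to 37286 and 195 to 1502 CPM in BLZ945 mice. The 5 red blood cell markers in the table, of which Hba-a2 had no read, summed to 123 to 962 against 25.7 to 85.5 CPM in CTL and 73.1 to 1159 against 7.10 to 155 CPM in BLZ945 libraries. The 10 CAM markers ran the other way, with 1995 to 6603 CPM contralaterally and 4929 to 8720 ipsilaterally in CTL mice and 1658 to 4750 against 5699 to 10469 CPM in BLZ945 mice, where 3 of 10 were called higher ipsilaterally. Of all 18297 genes, 2.79% were called in CTL (78 up, 432 down) and 5.61% in BLZ945 mice (220 up, 807 down). The part of these differences in the member values was not tested.

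**Figure D5:**
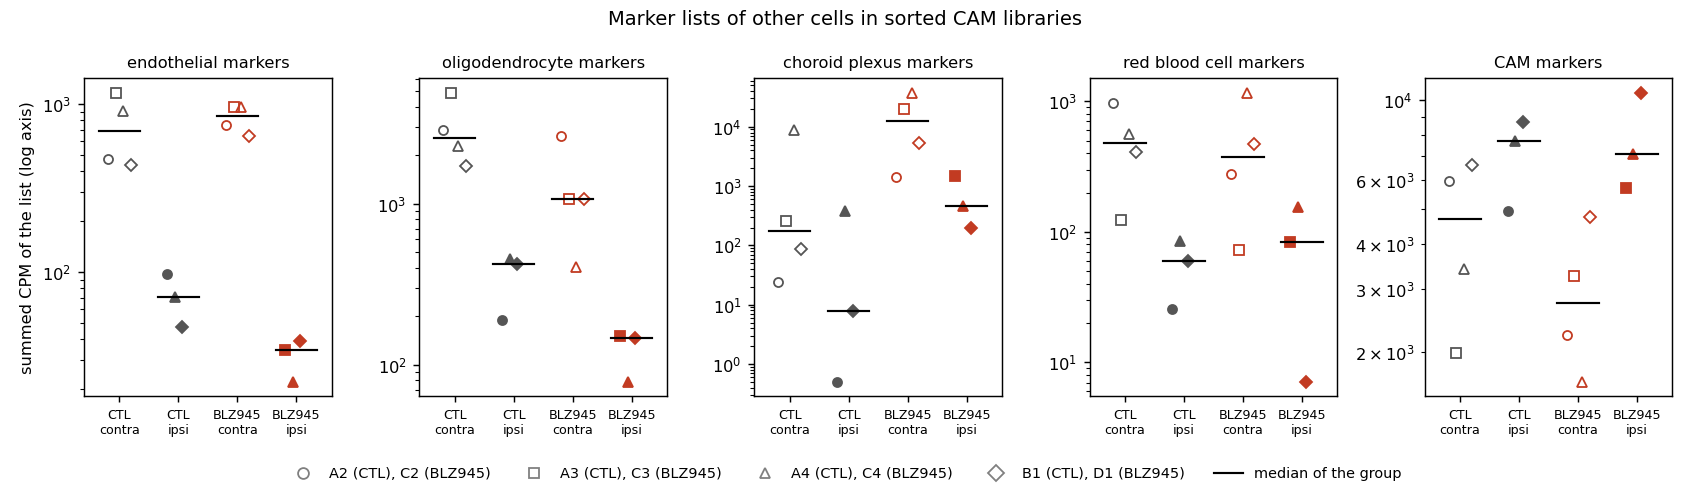
Summed CPM (log axis) of 5 marker lists in each of the 14 CAM libraries, by treatment and hemisphere, with 1 marker per mouse and the group median as a bar. Endothelial and oligodendrocyte sums are higher in every contralateral library than in any ipsilateral library of the same treatment, and the CAM markers are lower there in BLZ945 mice.

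Among other neutrophil genes in CAMs, 1 of 31 was called lower ipsilaterally in CTL and 2 in BLZ945 mice, with none higher. These counts are near the background, 2.79% of all genes in CTL (78 up, 432 down) and 5.61% in BLZ945 mice (220 up, 807 down). Pglyrp1, a granule protein that binds bacterial cell walls and is also transcribed by brain endothelium, fell by 3.36 in CTL mice (SE 0.50 and adjusted p = 0.00375 by edgeR) and fell by 3.14 in BLZ945 mice (SE 0.49, adjusted p = 0.00271). Its level was 110 ± 67.9 CPM contralaterally and 10.6 ± 4.30 ipsilaterally in CTL mice, and 116 ± 33.6 and 12.9 ± 5.34 in BLZ945 mice. Lcn2 fell by 2.88 in BLZ945 CAMs (SE 0.69, adjusted p = 0.0254), from 104 ± 47.9 to 13.9 ± 8.72 CPM, the opposite direction to that in tissue. The median log2 fold change of the 31 genes was 0.45 in CTL and -1.57 in BLZ945 mice.

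Primary granule genes are transcribed in neutrophil precursors before Ngp, Camp and Ltf. Their sum in CAMs was at most 1.17 CPM in CTL libraries and 1.96 CPM in ipsilateral BLZ945 libraries, and it ranged from 0 to 15.4 CPM (median 2.68) in contralateral BLZ945 libraries. Elane, neutrophil elastase, averaged 1.23 ± 2.46 CPM there and had no read in the other 3 groups. None of the 4 was called in either treatment or reached an unadjusted p under 0.05 by edgeR. Of the recruitment genes, none of 16 was called in CAMs, with 3 higher at an unadjusted p under 0.05 in CTL mice and 4 higher and 1 lower in BLZ945 mice. Of all 18297 genes, 3346 in CTL and 4088 in BLZ945 mice were under that unadjusted cutoff. Itgb2, the integrin chain shared by macrophages and neutrophils, had 374 ± 92.9 CPM contralaterally and 732 ± 50.7 ipsilaterally in CTL mice (0.97 ± 0.27, adjusted p = 0.0665). Tlr4, a receptor of calprotectin, rose in BLZ945 CAMs by 1.21 ± 0.34 (adjusted p = 0.0494), from 113 ± 35.1 to 262 ± 52.6 CPM. It was the only one of 5 such receptors called, against a background of 5.61% of all genes.

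The genes whose levels most resembled the summed level of the 10 members were ranked by Pearson's r on log2 CPM, among genes with a mean of at least 1 CPM. Over the 14 CAM libraries and 13819 genes these were Wfdc21 (0.94), Slc25a16 (0.87), Ccrl2 (0.83), Tnfaip2 (0.83) and Atg3 (0.83). Over the 16 tissue libraries and 14316 genes, where Csf3r contributed most reads, they were Vasp (0.80), Tmem252 (0.80), Derl2 (0.79), Rnf125 (0.78) and Kdm6b (0.77). The libraries share their depth scaling and, in pairs, their mouse, so these values are descriptions of rank only.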

How the data were processed

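Bulk RNA-seq libraries were made with a low-input kit that amplifies cDNA by PCR, without molecular identifiers, so counting intervals and floors cover counting error only. Per the labels and the study's methods, the authors used bcl2fastq 2.20, STAR 2.7.11a and featureCounts 2.0.8 and deposited raw counts per gene as 1 table for tissue and 1 for CAMs, without normalization. The genome build of these counts is not given in the sources used here (the methods name more than one). No column was left unmapped.

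Genes were kept if their counts added up to at least 8 in tissue or at least 7 in CAMs. One edgeR 4.0.16 quasi-likelihood model per table, with TMM scaling and a mean for each of 4 groups, was fitted in R 4.3.3 across all genes, with two-sided tests and Benjamini-Hochberg adjustment over all genes tested. CPM used TMM-scaled library sizes, and log2 fold changes a prior count of 2. The SE of a log2 fold change was its size over the square root of the F statistic. DESeq2 1.42.0 was the second tool. Intervals were exact (Clopper-Pearson, 95%, scipy 1.17.1). The model was tested on simulated data.

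Hemispheres pair by mouse, since both come from the same animal. Deviations from the group means of the 2 hemispheres correlated at 0.21 to 0.65 in 8 mice (tissue) and 0.05 to 0.19 in 6 mice (CAMs). Replicates differed by more than sampling noise in every pair, and none was merged. The replicates are separate mice.

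The alternatives were DESeq2, its size factors in edgeR, no filter, filterByExpr, the mouse as a block, no fold change threshold, a prior count of 0.5, each mouse left out, the hemispheres of A3 by column name, and all 16 CAM libraries. Leaving out A4 ipsilateral and D1 contralateral CAMs was added after their values were seen. The 10 members and 16 gene lists were chosen with earlier results of these data known. All members were named, and from each list at most 4 genes called across hemispheres with the smallest p, or else the 2 with the highest mean CPM; lists whose genes the text does not name are given by their sums or counts. Promoter sequences came from RefSeq (GRCm38.p6), with all 10 members matched (the first listed start for Ly6g).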

Additional observations from a re-analysis of the deposited data

Results flagged for a closer look

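Among 31 groups of 4 libraries tested for a single value standing apart from the others, 6 were picked out. The measure, the gap to the next value over the range, is at its maximum for any group with reads in a single library. This was so for S100a9 in contralateral BLZ945 tissue and for Ly6g in contralateral CTL CAMs. How many groups chance alone would pick out was not established, so the 6 do not show an excess. In contralateral CAMs of BLZ945 mice, D1 stood above the other mice for Ngp (322 CPM, next 7.34), Camp (68.6 CPM, next 0.404) and Ltf (144 CPM, next 0.101). These 3 genes share the library, so they are not separate cases. Ly6g had 1.53 CPM in B1 contralateral CAMs and 0 in the other CTL contralateral libraries. In tissue, S100a9 had 0.375 CPM in D1 contralateral (4 reads) and 0 in the other 3 mice, and Csf3r had 4.31 CPM in C3 ipsilateral, below 5.69 CPM in the next mouse.

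The ipsilateral CAM library of CTL mouse A3, left out for degraded RNA, had 54055 reads in all. It held S100a9 at 1147 CPM (62 reads, 95% counting interval 879 to 1470), Camp at 203 CPM (11 reads, 102 to 364) and Ltf at 92.5 CPM (5 reads, 30.0 to 216). The highest contralateral CTL values were 223, 1.64 and 0.290 CPM. In the same library S100a8 had 2 reads. The other library left out, of C2, had no member above the contralateral CTL libraries by this measure. No member had opposite hemisphere differences in every mouse of the 2 treatments.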

How the results depend on the processing

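The 10 counts of members called, all 0, gave 161 alternative values, of which 155 were unchanged. With DESeq2, which gave 4 to 7 members an adjusted p in each comparison, 1 member was called in CTL tissue and 2 in BLZ945 tissue; with the replicate block, 1 in CTL tissue, 1 in BLZ945 tissue and 1 in CTL CAMs; leaving out 1 mouse gave 0 to 1 in CTL CAMs, the 1 being Ltf without D1. The block changed no other call. Of 31 log2 fold changes, 20 kept their sign under every alternative run. Leaving out 1 mouse gave ranges through 0 for Csf3r in BLZ945 tissue (-0.14 to 0.22), for S100a8 (-0.90 to 0.41), S100a9 (-0.72 to 0.54) and Camp (-1.23 to 5.93) across hemispheres in CTL CAMs, for Ltf in BLZ945 CAMs (-3.75 to 0.68), and for Camp (-0.84 to 5.36) and Ltf (-0.30 to 7.29) between treatments in contralateral CAMs. With all 16 CAM libraries S100a9 in CTL CAMs turned to 0.71. Without A4 ipsilateral and D1 contralateral CAMs, Camp turned to -1.27 in CTL CAMs; Ngp, Camp and Ltf turned to 1.13, 2.27 and 3.84 in BLZ945 CAMs; Camp and Ltf turned to -0.84 and -0.31 between treatments contralaterally; and Camp and Ltf turned to 3.53 and 1.65 in the interaction. The cause of these shifts beyond the libraries removed was not tested. With the hemispheres of A3 by column name, edgeR called 0 genes in CTL and 6 in BLZ945 tissue. Treatment contrasts have no fit with the mouse as a block, since each mouse had 1 treatment. Tissue depth limits S100a8, Cxcr2 and the granule genes, at 12 reads or fewer per library, and in CAMs the spread between mice limits the members.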

Other observations

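Reads of S100a8 and S100a9 were shared unevenly in some libraries. Summed over mice, S100a8 made up 16 of 81 reads of the pair in ipsilateral CTL tissue (19.8%, 95% exact interval 11.7 to 30.1), where mouse B1 alone gave 39 of the 65 S100a9 reads. It made up 5 of 9 reads in contralateral CTL tissue (55.6%, 21.2 to 86.3), 34 of 88 in ipsilateral BLZ945 tissue (38.6%, 28.4 to 49.6) and 13 of 17 in contralateral BLZ945 tissue (76.5%, 50.1 to 93.2). In the 14 CAM libraries its share was 43.3% to 58.0%, which the intervals of all tissue groups but ipsilateral CTL overlap. The A3 ipsilateral CAM library left out for degraded RNA had 2 of 64 (3.13%, 0.381 to 10.8), and that of C2 had 8 of 14 (57.1%, 28.9 to 82.3). The intervals cover counting error only, and no difference between groups was tested.

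Cell cycle genes of granulocyte progenitors gave no call in CAMs or tissue, with 1 of 3 higher at an unadjusted p under 0.05 in CTL CAMs (edgeR), where 3346 of 18297 genes were under that cutoff. Monocyte markers, the cell type next to neutrophils in the blood, summed to 392 to 544 CPM in contralateral CTL, 350 to 1038 in ipsilateral CTL, 420 to 1804 in contralateral BLZ945 and 381 to 762 CPM in ipsilateral BLZ945 CAM libraries, with none of 10 called across hemispheres. Platelet markers summed to 8.62 to 113 CPM over the CAM libraries. Of 5 tested, 1 was called lower ipsilaterally in BLZ945 mice, Itga2b, at 3.01 ± 1.29 CPM contralaterally and 0 ipsilaterally. In that comparison 5.61% of 18297 genes were called (220 up, 807 down). T, NK and B cell markers summed to 97.8 to 429 CPM with none of 9 called, and neuron markers to 85.9 CPM or less with none of 5 called. Of 4 astrocyte markers 1 was called lower ipsilaterally in BLZ945 CAMs, Gfap, from 89.8 ± 62.2 to 8.17 ± 10.1 CPM.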
